A study of Mus musculus with 2 samples.

Results

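The expression of 10 genes that mark retinal ganglion cells and horizontal cells was compared between cultured mouse neural retinal progenitor cells (mNRPCs) and mouse retina tissue. The genes were named as a list and found by symbol after the deposited transcript rows had been summed per gene, and all 10 were found among 31253 genes. There were 6 ganglion cell genes (Rbpms, Pou4f1, Pou4f2, Sncg, Thy1 and Gap43) and 4 horizontal cell genes (Lhx1, Onecut1, Calb1 and Prox1). RNA sequencing had been done on 1 mNRPC library, from a culture of C57BL/6 cells at passage 24, and on 1 library of C57BL/6 retina. According to the methods of the study, mNRPCs were grown from neural retina of adult mice on Matrigel in N2/B27 medium, to which bFGF, a fibroblast growth factor, and the GSK3 inhibitor CHIR99021 were added. The culture is a single line, the labels do not give the age of the mice behind the retina library, and neither group carried a transgene or deletion by the labels. With 1 library per group there is no spread between replicates to hold a difference against, so no test was run.

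Ganglion cells are the output neurons of the retina, and their axons form the optic nerve. Horizontal cells are interneurons that contact photoreceptor terminals in the outer plexiform layer and feed signals back to these. Both are born early in retinal development and are rare in adult retina, where rods make up most of the cells. In bulk RNA, fewer cells of a type and less RNA per cell cannot be told apart.

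Values are in FPKM (fragments scaled to transcript length and to the mapped fragments of the library), which is a level per transcript length and so can be compared between genes. The log2 ratio is log2(FPKM + 1) of mNRPCs minus log2(FPKM + 1) of retina, a scale that makes the difference of low genes look smaller than it is. A gene was compared where either library reached 1 FPKM, and a log2 ratio of 1 or more in size is called 2-fold. Depth was estimated from the lowest FPKM values at 6.47e+06 fragments for the mNRPC library and 5.07e+06 for retina. Intervals are 95% exact Poisson intervals on estimated fragments and cover counting error only. An estimated value can also fail. Rps19, a ribosomal protein gene used by every cell, was at 10.2 FPKM in mNRPCs and at 0.0586 in retina. Of 6699 genes that reached 10 FPKM in retina, 239 (3.57%) were listed at 0 in mNRPCs, and of 6414 that reached it in mNRPCs 42 (0.655%) were listed at 0 in retina. These counts hold silent genes as well as any failed estimates, which cannot be told apart. A gene without signal is therefore described only as listed at 0, and no fold of that gene between the libraries is given. Its log2 ratio on the FPKM + 1 scale is set by the retina level and the added 1, and it is counted as lower on that scale alone.

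Of the 10 genes, 7 were at least 2-fold lower in mNRPCs, 0 were at least 2-fold higher, 2 lay within 2-fold and 1 did not reach 1 FPKM in either library. Among all 13780 genes compared, 30.0% were at least 2-fold lower and 24.5% at least 2-fold higher. The 7 lower genes were Rbpms, Pou4f1, Pou4f2, Sncg, Thy1, Lhx1 and Calb1, and each of these passed the 1 FPKM minimum through the retina library alone. Of 2704 genes that passed in this way, 90.6% were at least 2-fold lower, so the count of 7 is read only beside that share. Without a minimum the count was also 7, and 4130 of 31253 genes were lower. Gap43 and Prox1 were above the minimum in both libraries and lay within 2-fold. The median log2 ratio was −3.49 over the 6 ganglion cell genes and −1.39 over the 3 horizontal cell genes compared, and was −0.12 over all genes compared. The horizontal cell median is the value of Lhx1, a gene listed at 0 in mNRPCs that passed the minimum through retina alone, and the ganglion cell median is the mean of Pou4f1 and Rbpms, which did so too, so neither median is read as a difference from all genes. With levels of 3 or fewer fragments replaced by the level of 3 fragments, and without a pseudocount, these medians were −6.24 and −3.76. Both are bounds set by the limit of 3 fragments and take a listed 0 as a true low level. The second is the value of Lhx1 alone at that limit, and is not read as a fold of that gene. Summed over the list, the ganglion cell genes came to 32.6 FPKM in mNRPCs and 298 in retina, and the horizontal cell genes to 10.9 and 50.8 FPKM. Gap43 and Prox1 made up nearly all of the mNRPC sums.

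**Figure D1:**
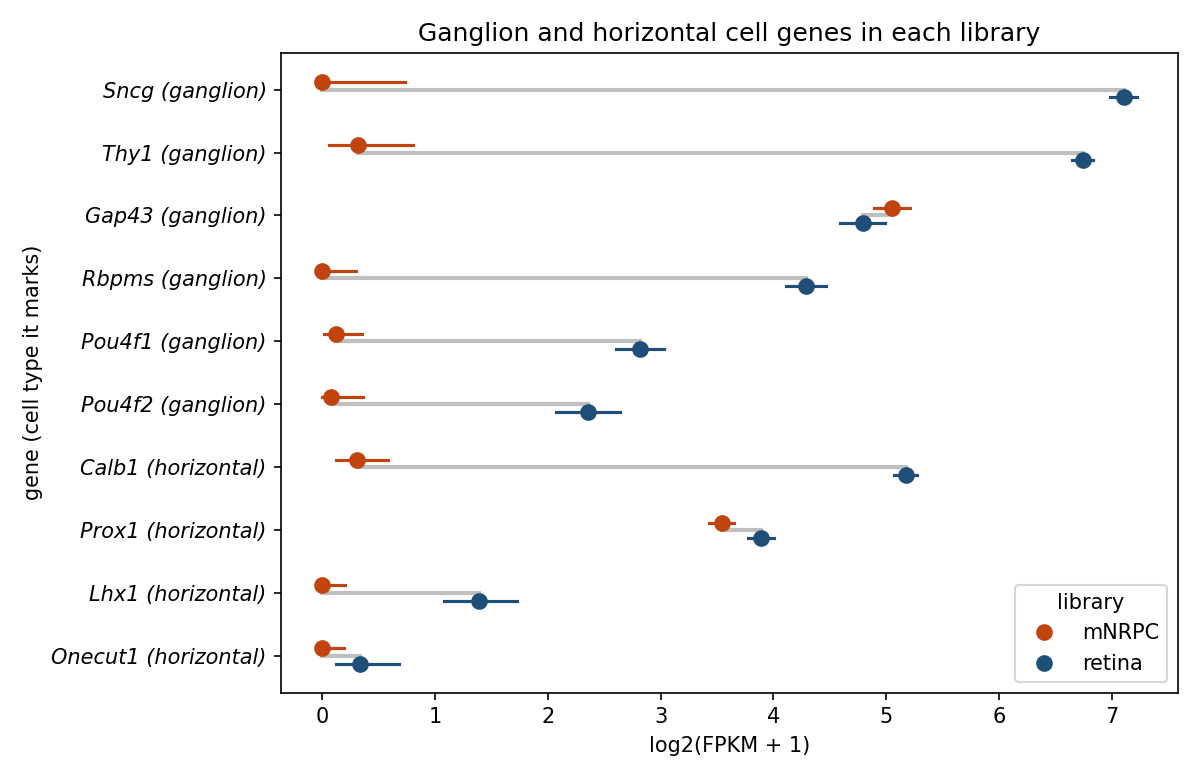
Level of each gene as log2(FPKM + 1) in the mNRPC library and the retina library, with 95% counting intervals as bars and a grey line joining the libraries. Sncg and Thy1 show the widest gaps (log2 ratios −7.11 and −6.43), and Gap43 and Prox1 the narrowest among the genes compared (0.26 and −0.35).

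The retina library had a clear order of levels. Sncg was highest at 137 FPKM, then Thy1 (106), Calb1 (35.1), Gap43 (26.8), Rbpms (18.6), Prox1 (13.8), Pou4f1 (6.04), Pou4f2 (4.13), Lhx1 (1.63) and Onecut1 (0.264). Among neighbours in this order only the counting intervals of Pou4f1 (5.07 to 7.15 FPKM) and Pou4f2 (3.20 to 5.24) overlapped. Sncg was at percentile 97.0 of the genes compared and Thy1 at 95.9, while Lhx1 was at 15.0. In mNRPCs Gap43 was highest at 32.3 FPKM and Prox1 next at 10.7, with intervals that did not overlap. The other 8 genes were at 0.244 FPKM or less, and the intervals of neighbours among these overlapped, so their order in mNRPCs cannot be read. The members thus did not hold a common level in retina, and in mNRPCs there was a pair with clear signal and 8 genes near or at 0.

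Pou4f1 and Pou4f2 encode BRN3A and BRN3B, POU homeodomain transcription factors that act in ganglion cell development. Pou4f1 lies on the minus strand of chromosome 14 (chr14:104461675-104468118, GRCm38) and Pou4f2 on the minus strand of chromosome 8 (chr8:78433009-78436647). Pou4f1 had 0.0887 FPKM in mNRPCs (about 2.55 fragments) against 6.04 FPKM in retina (about 136 fragments). Pou4f2 had 0.0573 FPKM in mNRPCs (about 1.19 fragments) against 4.13 FPKM in retina (about 67.0 fragments). Both were low in mNRPCs and moderate in retina, and the counting intervals of the libraries did not overlap for either. Retina over mNRPC came to 68.1-fold for Pou4f1 (interval 21.1 to 404) and 72.1-fold for Pou4f2 (14.0 to 1759), and the log2 ratios were −2.69 and −2.28. The width of these intervals comes from the few mNRPC fragments. The third gene of the family, Pou4f3, was listed at 0 in mNRPCs against 2.61 FPKM in retina.

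Rbpms encodes an RNA-binding protein used as a marker of all ganglion cells. It lies on the minus strand of chromosome 8 (chr8:33782643-33929922). Rbpms was listed at 0 in mNRPCs on each of its 12 transcript rows, and was at 18.6 FPKM in retina, an estimated 232 fragments. In mNRPCs 3 fragments would be 0.188 FPKM. Its paralog Rbpms2, also found in ganglion cells, differed from it. Rbpms2 had 23.6 FPKM in mNRPCs against 18.9 in retina, with a log2 ratio of 0.30 that turned to −0.19 once both libraries were scaled to an equal sum of FPKM. So of this pair of genes with similar retina levels, Rbpms2 had signal in mNRPCs and Rbpms was listed at 0.

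Sncg encodes gamma-synuclein, a small neuronal protein that is abundant in ganglion cells and their axons. It lies on the minus strand of chromosome 14 (chr14:34370274-34374669). Sncg was listed at 0 in mNRPCs against 137 FPKM in retina, an estimated 590 fragments. On this transcript of 852 bp, 3 mNRPC fragments would be 0.544 FPKM. Its log2 ratio of −7.11, set by its retina level and the added 1, was the lowest of the 10 genes on this scale. Sncb, which encodes beta-synuclein, was likewise listed at 0 in mNRPCs against 185 FPKM in retina.

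The stretches of 250 bases before the transcript start, from RefSeq on GRCm38.p6, are shown for the gene with the lowest log2 ratio, for the pair of Pou4f genes and for Prox1, which lay within 2-fold. Capitals mark CG dinucleotides. RefSeq stretches were at hand for 6 of the 10 genes. Prox1 has a pair of starts there, and the one at the outer end of the gene is shown. The one of Pou4f1 belongs to a start inside the span given above and so overlaps the gene.
Sncg (chr14:34374670-34374919, minus strand): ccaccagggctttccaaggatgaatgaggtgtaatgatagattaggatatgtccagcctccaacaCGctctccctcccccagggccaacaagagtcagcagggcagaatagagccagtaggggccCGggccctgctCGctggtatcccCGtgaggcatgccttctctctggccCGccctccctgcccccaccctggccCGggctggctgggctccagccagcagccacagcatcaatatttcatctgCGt
Pou4f1 (chr14:104468000-104468249, minus strand): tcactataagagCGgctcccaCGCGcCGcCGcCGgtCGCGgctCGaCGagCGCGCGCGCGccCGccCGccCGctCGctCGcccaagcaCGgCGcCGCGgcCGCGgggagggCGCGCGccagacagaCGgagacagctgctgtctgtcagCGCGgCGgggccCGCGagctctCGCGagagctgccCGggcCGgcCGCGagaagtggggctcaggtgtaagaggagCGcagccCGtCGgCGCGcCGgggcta
Pou4f2 (chr8:78436648-78436897, minus strand): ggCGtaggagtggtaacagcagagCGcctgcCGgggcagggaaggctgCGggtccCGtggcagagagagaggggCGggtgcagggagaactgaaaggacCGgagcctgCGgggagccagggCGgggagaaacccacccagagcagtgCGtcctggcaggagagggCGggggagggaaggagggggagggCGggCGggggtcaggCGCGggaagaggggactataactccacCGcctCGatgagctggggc
Prox1 (chr1:190170828-190171077, minus strand): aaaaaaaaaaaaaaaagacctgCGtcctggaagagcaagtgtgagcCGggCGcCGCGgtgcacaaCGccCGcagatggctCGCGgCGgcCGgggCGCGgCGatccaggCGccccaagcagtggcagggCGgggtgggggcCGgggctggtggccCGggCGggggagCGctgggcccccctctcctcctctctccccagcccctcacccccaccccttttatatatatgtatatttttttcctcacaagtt
Sncg had 7 CG dinucleotides in this stretch, Pou4f2 17, Prox1 20 and Pou4f1 47, against a median of 6 over 32851 promoters. Pou4f1 was at percentile 99.8 of these by CG number, and Sncg at 53.7. Short runs of letters were then looked for on both strands. The E-box CAGCTG was found in Pou4f1, 118 bases before the start, and is in 13.0% of all promoters of this length. The TATA box TATAAA was found in Prox1 on the opposite strand, 34 bases before the start, and is in 12.4% of all promoters. The stretch at the other start of Prox1 (chr1:190169516-190169765), not printed, had 11 CG dinucleotides and none of the runs searched. The homeodomain core TAATTA, in 4.84% of all promoters, was in none of the 4 stretches. The left part of the element bound by REST, TTCAGCACC, in 0.301% of all promoters, was in none of these either. A match is only a run of letters, and the lower genes and Prox1 were not set apart by the number of CG dinucleotides.

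Thy1 encodes a surface glycoprotein held by a lipid anchor, abundant on ganglion cells and also found on fibroblasts. It lies on the plus strand of chromosome 9 (chr9:44043384-44048579). Thy1 had 0.244 FPKM in mNRPCs (about 2.74 fragments) against 106 FPKM in retina (about 934 fragments). Retina was 435-fold higher (interval 142 to 2337), with a log2 ratio of −6.43. Some fibroblast genes were higher in mNRPCs. Of 12 such genes 9 were compared, and 5 of these were higher in mNRPCs by 2-fold or more, 0 lower and 4 within 2-fold. Among all genes compared, 24.5% were higher and 30.0% lower. All 9 reached 1 FPKM in mNRPCs, and 4 did so in retina. Among the higher genes Col3a1, Postn, Twist1 and Prrx1 passed the minimum through mNRPCs alone, which favours a call as higher. The list summed to 713 FPKM in mNRPCs and 13.0 in retina. At an equal sum 5 of 10 were higher and 1 lower. Col3a1, a collagen gene, had 450 FPKM in mNRPCs against 0.311 in retina, and Prrx1, a transcription factor gene of mesenchyme, 108 against 0.439 FPKM. The lowest ratios among those compared were those of Dcn, at 1.96 and 2.58 FPKM (−0.27), and Pdgfra, at 1.76 and 1.23 FPKM (0.31), and Col1a1 was at 1.35 and 0.552 FPKM. Lum was listed at 0 in both libraries. Thy1 was thus near the limit of detection in a library with high levels of some fibroblast genes.

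Gap43 encodes a protein of axonal growth cones, high in neurons that extend axons and also present in neural progenitors and some glia. It lies on the minus strand of chromosome 16 (chr16:42248552-42340651). Gap43 was at 32.3 FPKM in mNRPCs (interval 28.7 to 36.1) and 26.8 in retina (23.1 to 30.9), from an estimated 296 and 193 fragments. These counting intervals overlapped. The log2 ratio of 0.26 had a counting interval of 0.0029 to 0.52. Its sign depended on the scaling, with −0.24 at an equal sum, 0.33 with trimmed mean scaling and 0.21 with upper quartile scaling. Gap43 was at percentile 80.5 of the genes compared in mNRPCs and at 79.4 in retina, so its rank hardly differed. Basp1, which encodes a growth cone protein of like function, had 55.6 FPKM in mNRPCs against 83.3 in retina , with a log2 ratio of −0.57 (−1.09 at an equal sum).

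Among the horizontal cell genes, Calb1 was highest in retina. It encodes calbindin, a calcium-binding protein of horizontal cells that some amacrine and ganglion cells also hold, and lies on the plus strand of chromosome 4 (chr4:15881264-15906709). Calb1 had 0.237 FPKM in mNRPCs (about 6.48 fragments) against 35.1 FPKM in retina (about 751 fragments). Retina was 148-fold higher (interval 69.5 to 386), and the log2 ratio was −4.87. Calb2, the gene of the related protein calretinin, had 0.0919 FPKM in mNRPCs (about 0.851 fragments) against 260 FPKM in retina. Calretinin marks amacrine and ganglion cells in mouse retina. The relative difference of Calb2 was wider than that of Calb1, with mNRPC values at 0.0353% and 0.676% of retina.

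The study designed Q-PCR primers for Gap43 and Calb1, which are shown because they mark the part of each transcript that its assay reads. All Q-PCR values were left aside here. The primers were placed on the GENCODE M21 transcripts (GRCm38) by exact match.
Gap43 forward (chr16:42340481-42340500): gctgtgctgtatgagaagaa
Gap43 reverse (chr16:42292286-42292303): tttggtcgcagccttatg
Calb1 forward (chr4:15905527-15905548): ctctgtgtgctctctgattaaa
Calb1 reverse (chr4:15905612-15905632): gatacccttggtggaaatgaa
The Gap43 pair lies in coding sequence of exons 1 and 2 of 3 and spans 109 bases of the transcript. The Calb1 pair lies in the 3′ UTR, in exon 11 of 11, and spans 106 bases. Both genes had a single RefSeq transcript row, and the GENCODE transcripts that hold the primers are of 1420 and 4222 bp. Whether each row has the same sequence as that transcript was not checked.

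Lhx1 and Onecut1 encode a LIM homeodomain factor and a cut homeodomain factor, which act in the specification and placement of horizontal cells. Lhx1 (chr11:84517975-84525534, minus strand) was listed at 0 in mNRPCs against 1.63 FPKM in retina, an estimated 31.8 fragments, with a log2 ratio of −1.39. Onecut1 (chr9:74861921-74889648, plus strand) was listed at 0 in mNRPCs against 0.264 FPKM in retina, an estimated 5.30 fragments. Retina was the library with signal for both, but for Onecut1 this signal was slight. In mNRPCs 3 fragments would be 0.121 FPKM for Lhx1 and 0.117 for Onecut1, and in retina 0.154 and 0.150. The upper counting limit of Onecut1 in mNRPCs (0.144 FPKM) was above its lower limit in retina (0.0893), while the counting interval of its log2 ratio of −0.34 lay just below 0, from −0.68 to −0.05. That ratio rests on 5.30 estimated fragments in a single library. Onecut1 shares 2171 exon bases with a noncoding gene on the same strand, and its reads may be split with that gene. Of the related genes, Onecut2 had 0.122 FPKM in mNRPCs against 0.453 in retina, Onecut3 was listed at 0 and was at 0.711, and Lhx5 was listed at 0 in both libraries.

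Prox1 encodes a homeobox factor that drives progenitors out of the cell cycle and toward horizontal cells, and that adult bipolar cells, some amacrine cells, Müller glia and lymphatic endothelium also express. It lies on the minus strand of chromosome 1 (chr1:190118035-190170827). Prox1 was at 10.7 FPKM in mNRPCs (interval 9.79 to 11.6) and 13.8 in retina (12.7 to 15.0), from an estimated 546 and 555 fragments. Retina was 1.30-fold higher (counting interval 1.15 to 1.46), and the log2 ratio of −0.35 was within 2-fold. It was also below 0 at an equal sum (−0.85), trimmed mean scaling (−0.28) and upper quartile scaling (−0.39). Its paralog Prox2 had 1.94 FPKM in mNRPCs against 0.857 in retina (log2 ratio 0.66). Of 11 endothelial and lymphatic genes 7 were listed at 0 in mNRPCs, among them Cdh5, Flt4 and Lyve1. The list summed to 251.1 FPKM in mNRPCs and 74.1 in retina, and nearly all of the mNRPC sum came from Pdpn (251.0 FPKM), which is not restricted to lymphatic vessels. Pdpn was higher in mNRPCs (20.4 FPKM in retina, log2 ratio 3.56), and 7 of the 8 genes compared were lower. These 7 passed the minimum through retina alone, and 90.6% of all genes that passed in this way were lower. Among all genes compared, 30.0% were at least 2-fold lower and 24.5% at least 2-fold higher. With trimmed mean scaling 6 of 8 were lower, and with upper quartile scaling 8 of 9. Tek was at 0.0862 and 1.18 FPKM, Kdr at 0.0219 and 29.5, and Esam was listed at 0 against 7.63 FPKM.

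The transcript rows behind these sums differed. Prox1 had 5 rows, and its curated row was at 0 in mNRPCs and at 1.9e-06 FPKM in retina, so that the whole signal sat on 4 predicted transcripts. The largest of these in retina had 3.23 FPKM in mNRPCs against 7.68 in retina, and another had 2.08 and 0.160 FPKM. The predicted rows of Prox1 thus differed in direction. On the row with the highest sum alone the log2 ratio of Prox1 was −1.04, past the 2-fold limit. Pou4f1 had 4 rows, and its curated row held 9.64% of its retina level, at 0.0280 FPKM in mNRPCs and 0.583 in retina. On the curated row its log2 ratio was −0.62, under the 2-fold limit. Both levels of that row were below 1 FPKM, where the added 1 shrinks the ratio. Of the Rbpms level in retina, 64.1% was on 1 curated row and 20.2% on another. The other 7 genes had a single row. The methods of the study name eXpress, which divides shared reads among transcripts by estimation. If it made these values, the sum of a gene is firmer than the share of a row. An antisense gene shares 133 exon bases with Prox1, and whether reads were assigned by strand is not given in the sources used here.

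**Figure D2:**
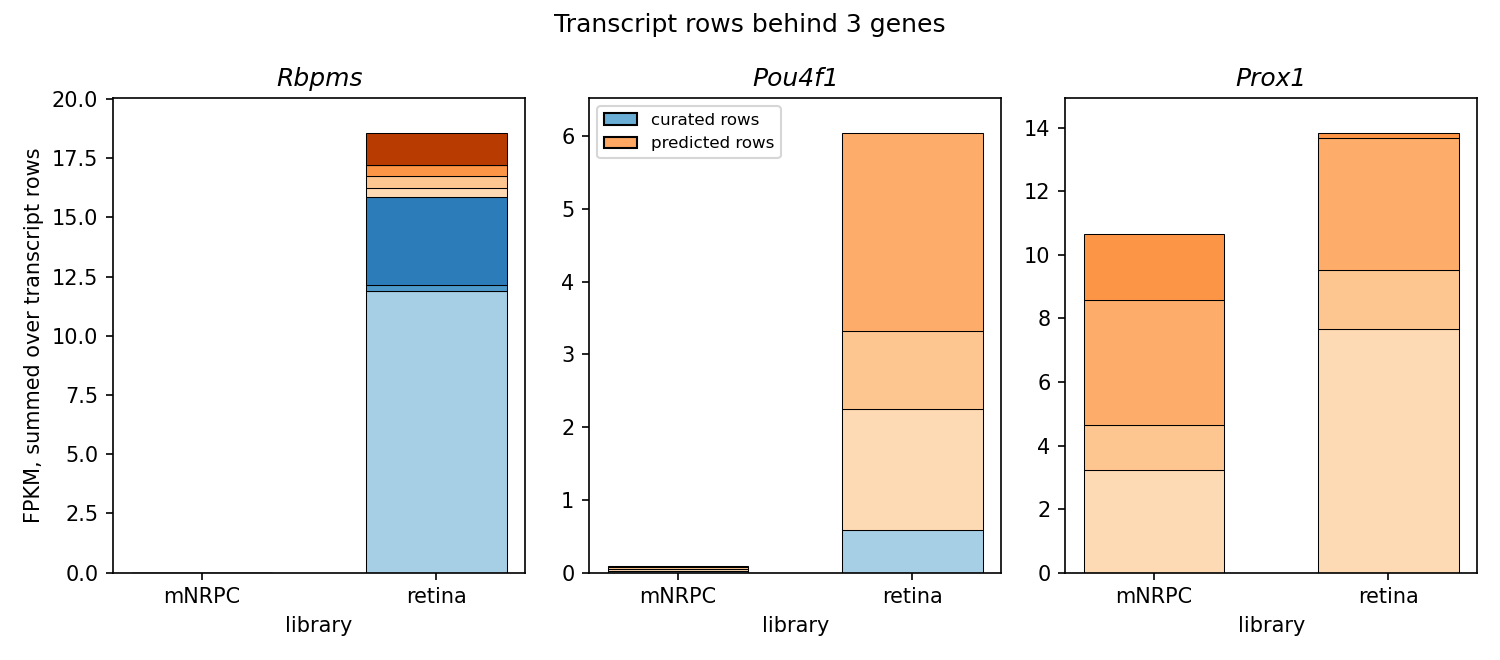
FPKM of Rbpms, Pou4f1 and Prox1 in the mNRPC and retina libraries, stacked by transcript row, with curated rows in blue and predicted rows in orange; each panel has its own scale from 0. Prox1 is built from predicted rows alone and has a similar total in the libraries (10.7 and 13.8 FPKM), while Rbpms is listed at 0 in mNRPCs.

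**Figure D3:**
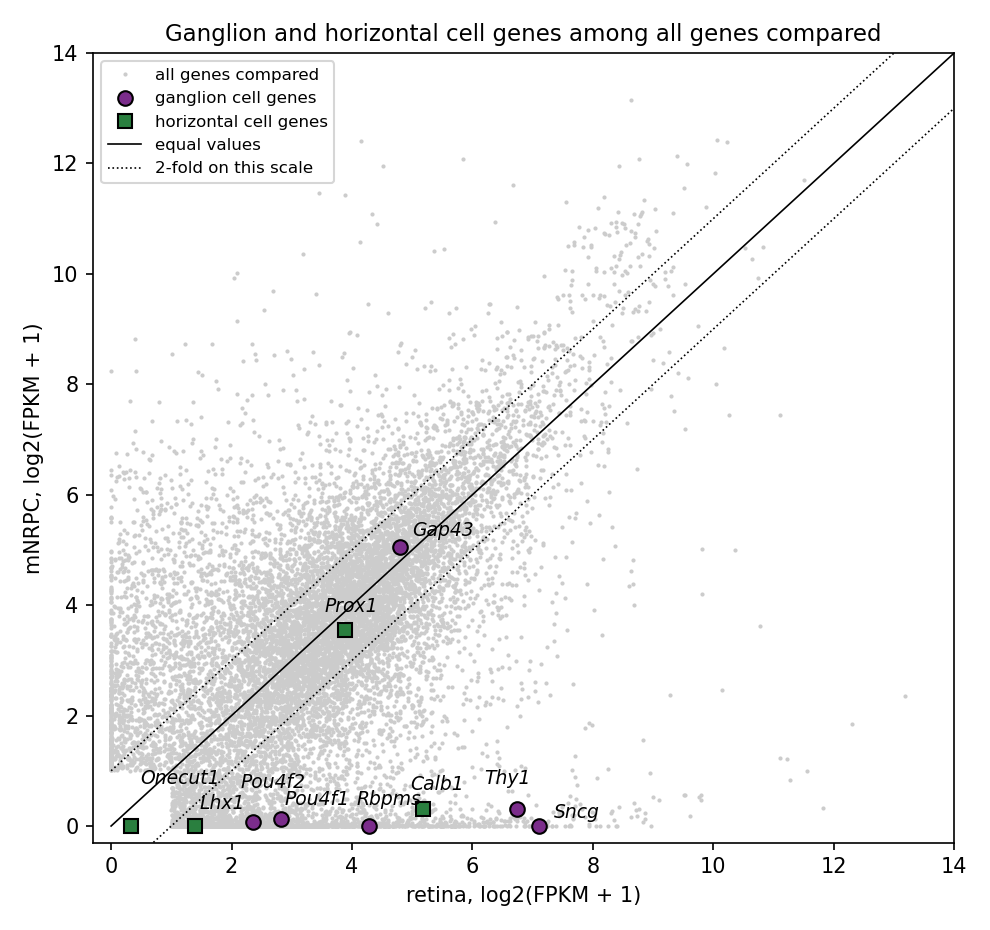
Level in mNRPCs against level in retina, both as log2(FPKM + 1), for the 13780 genes compared (grey), the 6 ganglion cell genes (circles) and the 4 horizontal cell genes (squares, with Onecut1 below the minimum). Gap43 and Prox1 lie between the dotted 2-fold lines at clear levels, and the other 8 genes lie along the bottom, Onecut1 nearest to 0 on both axes.

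Further genes of the same cell types were described next, from lists chosen with earlier results of these data known. Of 25 other ganglion cell genes 23 were compared, of which 22 were at least 2-fold lower in mNRPCs and 1, Rbpms2, lay within 2-fold. Their median log2 ratio was −3.26, and −4.78 with genes at or under 3 fragments set to that limit. In mNRPCs 12 of the 25 were listed at 0, and 7 reached 1 FPKM. The other 16 compared passed the minimum through retina alone and were all lower, which was so for 90.6% of all genes that passed in this way and for 30.0% of all genes compared. The lowest ratios were those of Nefl, a neurofilament gene, at 1.40 FPKM in mNRPCs and 208 in retina (−6.44), and of Stmn2, a tubulin-binding protein of axons, listed at 0 and at 44.0 FPKM (−5.49). Adcyap1, a neuropeptide gene, came next to Rbpms2 by log2 ratio (−1.27) only through its low retina level, as it was listed at 0 in mNRPCs against 1.40 FPKM in retina. Uchl1, a neuronal ubiquitin hydrolase gene, was at a higher share of its retina level, with 15.1 against 115 FPKM (13.1%), as was the adhesion gene L1cam, with 0.956 against 8.47 FPKM (11.3%). Atoh7, the factor that makes progenitors competent for the ganglion cell fate, was listed at 0 in both libraries.

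Of 15 other horizontal cell genes 10 were compared, with 8 at least 2-fold lower, 1 at least 2-fold higher and 1 within 2-fold, and a median of −2.23 (−4.36 with low genes at the limit). Of these 10, 7 passed the minimum through retina alone and all 7 were lower, as were 90.6% of all genes that passed in this way. Among all genes compared, 30.0% were at least 2-fold lower and 24.5% at least 2-fold higher. Calb2 stood on this list although in mouse retina it marks other cells, and without it 9 genes were compared, 7 lower and 1 higher, with a median of −2.16. Tfap2a, a transcription factor gene of horizontal and amacrine cells, was the one past 2-fold in the other direction, with 31.3 FPKM in mNRPCs against 7.08 in retina and a log2 ratio of 2.0 (1.57 at an equal sum). Megf10, a surface receptor gene that spaces horizontal cells and starburst amacrine cells, was at 9.39 and 4.21 FPKM (0.996, just under the limit, and 1.05 with trimmed mean scaling). The lowest were Calb2 and Slc32a1, the vesicular transporter of inhibitory neurons, which was at 0.0521 and 35.5 FPKM (−5.11). Gja10, a connexin gene of horizontal cells, was listed at 0 in mNRPCs against 1.86 FPKM in retina. In the retina library itself Ptf1a, a factor gene of horizontal and amacrine precursors, was at 0.515 FPKM and Foxn4, which acts before it, was listed at 0.

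Genes shared by many neurons were also read. All 11 pan-neuronal genes compared, of 12, were at least 2-fold lower in mNRPCs, with a median of −4.20, and the list summed to 44.3 FPKM in mNRPCs and 1411 in retina. Ncam1, a cell adhesion gene, had the highest ratio at 21.0 and 57.9 FPKM (−1.42), then Tubb3 at 15.4 and 63.4 (−1.98). Snap25, a gene of synaptic vesicle release, was lowest at 0.482 and 730 FPKM (−8.95), then Stmn3, listed at 0 and at 166 FPKM. Only 4 of these genes reached 1 FPKM in mNRPCs, and the other 7 compared passed the minimum through retina alone. All 7 were lower, as were 90.6% of all genes that passed in this way and 30.0% of all genes compared. The count is thus read only beside these shares. A difference between this list and the ganglion and horizontal cell genes was not tested.

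Markers of other cells in the samples were read beside these genes. Here too many genes passed the minimum through retina alone. They were 8 of 11 amacrine, 8 of 10 bipolar, 5 of 10 Müller glia and 7 of 10 rod genes. All of these were lower, as were 90.6% of all such genes. Among all genes compared, 30.0% were at least 2-fold lower and 24.5% at least 2-fold higher. Of 11 amacrine cell genes 9 were at least 2-fold lower in mNRPCs and 1, Tfap2a, higher, with sums of 41.4 FPKM in mNRPCs and 234 in retina. Gad1, an enzyme gene of GABA synthesis, was lowest at 0.0858 and 103 FPKM, then Gjd2 at 0.0593 and 39.4 FPKM, and Slc6a9, a glycine transporter gene, was at 6.91 and 11.2 FPKM. All 10 bipolar cell genes were at least 2-fold lower, with sums of 5.71 and 530 FPKM. The highest ratios were those of Lhx4 (−2.71) and Grik1 (−2.96), and the lowest those of Pcp2 (−8.12, listed at 0 in mNRPCs) and Cabp5 (−5.89). Of 10 Müller glia genes 8 were lower and 2, Vim and Sox9, higher, with sums of 3206 and 2157 FPKM, of which Vim alone was 3138 and 101. Rlbp1, a retinoid-binding protein gene, was lowest at 0.0986 and 202 FPKM, then Apoe at 4.21 and 618 FPKM. Of 12 mural and smooth muscle genes, cells in which Rbpms is also known, 5 were compared, with 2 higher, 2 lower and 1 within 2-fold. The lower genes, Rgs5 and Tagln, passed the minimum through retina alone. At an equal sum 7 were compared, with 1 higher and 5 lower, and with upper quartile scaling 2 were higher and 3 lower. The sums were 15.1 FPKM in mNRPCs and 19.7 in retina. Pdgfrb was higher, at 4.49 and 1.24 FPKM (1.29), as was Acta2, at 10.1 and 4.39 FPKM (1.05, and 0.64 at an equal sum), while Rgs5 (8.16 FPKM in retina) and Tagln (2.23) were listed at 0 in mNRPCs. The part of any of these cells in the values of the 10 genes was not tested.

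The labels were checked against marker genes. Of 7 retinal progenitor genes, chosen after their values were seen, Sox2 (231 FPKM), Pax6 (123), Six3 (39.7), Nes (9.42) and Lhx2 (3.06) reached 1 FPKM in mNRPCs, while Rax and Six6 were listed at 0. In retina 6 of the 7 reached 1 FPKM, namely Pax6 (101 FPKM), Rax (81.7), Six3 (33.2), Six6 (19.3), Sox2 (18.5) and Lhx2 (15.9), while Nes was at 0.841. The number of these genes with signal thus did not set the libraries apart. Each of 10 rod genes was between 325 and 5072 FPKM in retina and between 0.0832 and 2.58 FPKM in mNRPCs, which was 0.0070% to 0.0611% of the retina level with a median of 0.0386%. The log2 ratio was highest for Cnga1 (−8.24) and Nrl (−9.23) and lowest for Gngt1 (−11.50) and Pde6g (−10.57). For the genes with mNRPC signal near the limit, the share was 0.230% for Thy1, 0.676% for Calb1, 1.39% for Pou4f2 and 1.47% for Pou4f1. These shares were above those of the rod genes, but for Thy1, Pou4f1 and Pou4f2 rest on fewer than 3 estimated fragments. The part of retina RNA in these low values was not tested.

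**Figure D4:**
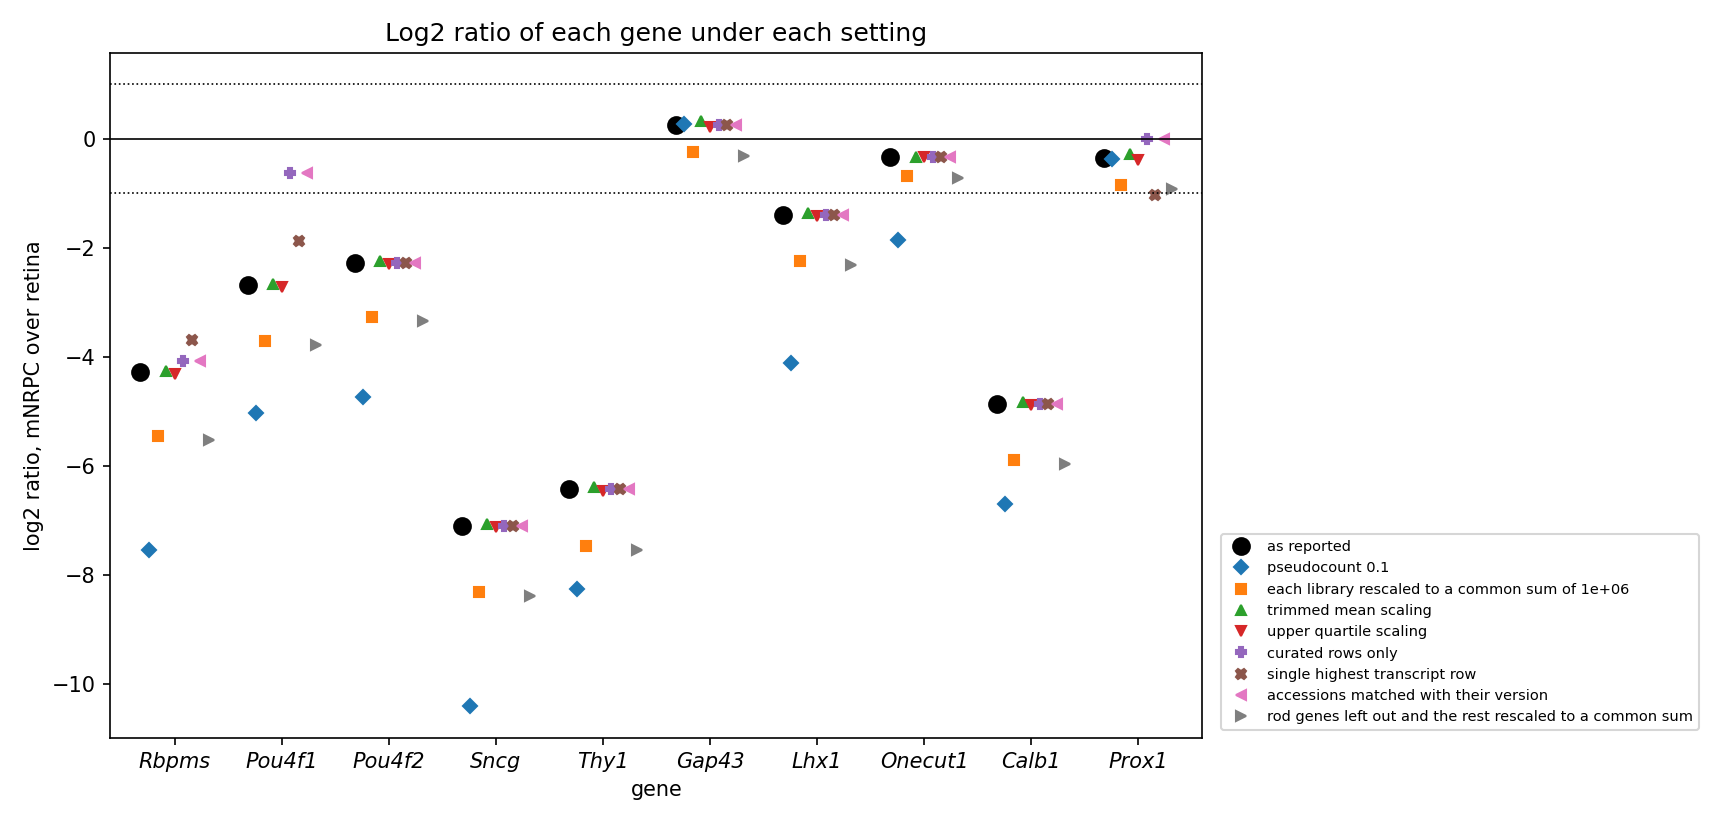
Log2 ratio of mNRPC over retina for each of the 10 genes as reported (black circles) and under 8 other settings, with dotted lines at 2-fold. Gap43 changes sign at an equal sum, Pou4f1 lies above the lower 2-fold line on curated rows, and Prox1 crosses it on its single highest row.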

How the data were processed

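The authors deposited 1 FPKM value per RefSeq transcript and library, from 1 mNRPC and 1 retina library; groups were taken from the labels. The methods of the study name Bowtie 2 and eXpress, while the submitters' processing notes name TopHat2 2.0.10 and the build GRCm38.p3. Library sums were 616860 FPKM (mNRPC) and 432256 (retina). Estimates below 1e-06 were read as 0. Accessions were matched without version to RefSeq (GRCm38.p6), then to GENCODE M21, which named 74283 of 106754 rows (69.6%), holding 93.2% and 89.9% of FPKM. Patch releases leave chromosome coordinates unchanged. Rows were summed per gene. 1 was added before log2, as in the study.

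Fragments were estimated from the lowest peak of FPKM times length in 6228 rows of at least 1500 bp. A minimum of 500 bp gave 6.40e+06 and 4.90e+06 fragments, and 2500 bp 6.44e+06 and 5.51e+06. The length of a curated transcript stood in for genes with several rows. The scripts were tested on simulated data. Python 3.11.15, pandas 2.3.3 and scipy 1.17.1 were used.

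The 10 genes were given as a named list, and the other lists were chosen with earlier results of these data known. All 10 were named, all paralogs, 1 excepted, and of each other list the 2 highest and 2 lowest ratios; Gja10, Atoh7, Ptf1a, Foxn4, Lum, Col1a1, Uchl1, L1cam, the progenitor genes and other genes listed at 0 were named after their values were seen. Some genes enter list values but are not reported here. Alternatives covered the pseudocount, scaling, rows, accession versions, the minimum and the rod genes.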

Additional observations from a re-analysis of the deposited data

How the results depend on the processing

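Of the 10 genes, 5 to 8 were at least 2-fold lower under every alternative, against 7 as reported, and 0 were at least 2-fold higher under each. With a pseudocount of 0.1 the medians of ganglion and horizontal cell genes went from −3.49 and −1.39 to −6.28 and −4.11, by construction. Scaling to an equal sum of FPKM gave −4.58 and −2.25, and leaving out rod genes before rescaling −4.66 and −2.31. Curated rows, and also versioned accessions, gave −4.08 and −3.13, as Pou4f1 and Prox1 were then under 1 FPKM. A minimum of 5 FPKM gave −4.29 and −2.61, with 7 genes compared. The single highest row moved the ganglion cell median to −2.98, and no minimum the horizontal cell median to −0.87, with Onecut1 then included. At an equal sum the all-gene median was −0.68 in place of −0.12, and higher genes were 30.2% of those past 2-fold in place of 44.9%. Over 80 values of single genes, 45 stayed within the counting interval, 35 moved beyond it and 2 changed sign, both of Gap43 (−0.24 at an equal sum, −0.31 without rod genes). Depth limits the genes with 3 or fewer estimated mNRPC fragments. No paired analysis was possible because there was 1 library in each group, and no library could be left out for the same reason.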

Other observations

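Each gene compared was set beside the gene nearest to it in the plane of the 2 log2(FPKM + 1) values, among 126 genes of the other lists. Over only 2 libraries this describes levels and says nothing of shared control. Rbpms was nearest to Chrnb3, a nicotinic receptor subunit gene on the ganglion cell list (listed at 0 in mNRPCs and at 18.3 FPKM in retina, distance 0.015). Lhx1 was nearest to Gja10 (distance 0.12), Calb1 to Slc32a1 (0.23) and Gap43 to Rbpms2 (0.65). Pou4f2 was nearest to Megf11, a receptor gene of the horizontal cell list at 0.0758 and 3.81 FPKM (0.0963), and Pou4f1 to Lhx4, a bipolar cell gene at 0.0333 and 5.76 FPKM (0.0962). Thy1 was nearest to Gad1 (0.20), Sncg to Car2 (0.25) and Prox1 to Slc6a9 (0.63), which stand on lists of other cell types.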
